A study of Homo sapiens with 2 samples.

Results

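The nuclear genes for the respiratory chain were followed by complex in TPC-1 cells, a human line of papillary thyroid carcinoma with a RET rearrangement. The siXPR1 library came from TPC-1 cells given an siRNA against XPR1, the phosphate exporter of human cells, and the siControl library from TPC-1 cells given a control siRNA. With 1 library per group, no difference below has a replicate check and no test of the conditions was possible. Neither the siRNA sequences nor the hours of treatment are stated in the labels, and whether more than 1 siRNA was used is not either. Members were the protein-coding genes of GENCODE 29 whose current symbol starts with NDUFA, NDUFB, NDUFC, NDUFS, NDUFV, UQCR, COX4, COX5, COX6, COX7, COX8, ATP5F1, ATP5M or ATP5P, together with SDHA, SDHB, SDHC, SDHD and CYC1. The rule took 98 of the 58884 genes in the table. They comprise 38 genes of complex I, 4 of complex II, 10 of complex III, 19 of complex IV, 19 of complex V and 8 assembly factors of complex I. The assembly factors, NDUFAF1 to NDUFAF8, match the letters of the rule but are not subunits, and they are kept apart below. NDUFA4 and its paralogue NDUFA4L2 were counted with complex IV, since NDUFA4 is a subunit of cytochrome c oxidase.

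The respiratory chain moves electrons from NADH and succinate to oxygen across the inner mitochondrial membrane. Complexes I, III and IV pump protons while they do so, complex II feeds in electrons from succinate without pumping, and complex V, the ATP synthase, uses the proton gradient to make ATP. Complexes I, III, IV and V combine a few subunits encoded in mitochondrial DNA with many encoded in the nucleus, whereas complex II is wholly nuclear. Phosphate is a substrate of the ATP synthase.

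The libraries held about 15153195 counted reads in siXPR1 cells and 15777909 in siControl cells. XPR1 itself was 5.31 TPM in siXPR1 cells and 39.2 TPM in siControl cells, so 13.5% of the control level remained (95% Clopper-Pearson interval 11.6% to 15.7%, counting error only). Of 8 thyroid markers, 3 reached a mean of 1 TPM, led by PAX8, while NKX2-1, TSHR and SLC5A5 were listed at 0 in both libraries. Of 6 epithelial markers, 3 reached that level, the keratins KRT7, KRT8 and KRT18, and EPCAM was listed at 0 in both. None of 7 leukocyte markers, 1 of 5 endothelial and 1 of 6 fibroblast markers did so. The thyroid markers summed to 436 TPM in siXPR1 cells and 613 TPM in siControl cells, and the epithelial to 135.5 and 197 TPM. The fibroblast markers summed to 7.85 TPM in siXPR1 cells and 1.52 TPM in siControl cells, mostly from COL1A1 at 6.67 and 1.04 TPM, while COL1A2, COL3A1 and PDGFRA were lower in siXPR1 cells. The other lists were low in both, the endothelial summing to 1.70 and 2.75 TPM, and the leukocyte to 0.826 and 0.457 TPM.

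Transcripts of the respiratory chain were, as a group, a little more abundant in siXPR1 cells. The 98 members summed to 7155 TPM in siXPR1 cells and 5364 TPM in siControl cells, a ratio of 1.33. TPM is a length-corrected share of all transcripts of a library, so these sums were 0.715% and 0.536% of all transcripts. In bulk RNA, a change in the mix of cells and a change in the RNA of each cell cannot be told apart. Differences are siXPR1 minus siControl on the log2(TPM + 1) scale, which makes those of low genes smaller, and a gene counted as at least 1.5-fold or 2-fold apart passed that fold on this scale. Ratios and folds given for single genes are of TPM itself.

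Of the 98 members, 90 had a mean TPM of at least 1 over both libraries. Their median difference was 0.39, with an interquartile range of 0.16 to 0.61. Over 11698 protein-coding genes at the same floor the median was 0.10 and the interquartile range -0.27 to 0.49. Of the 90 members, 79 were higher in siXPR1 cells by any amount and 11 lower, against 57% and 43% of protein-coding genes, though from 66 to 79 were higher under other scalings or with a length or level trend removed. The members at least 1.5-fold higher numbered 26, or 28.9%, against 20.7% of protein-coding genes, and 3 were at least 1.5-fold lower, or 3.33%, against 11.1%. At least 2-fold higher were 5 members (5.56%), against 8.75% of protein-coding genes, and 2 were at least 2-fold lower, against 4.57%. Most members thus had small differences in the same direction, and few had large ones. Gene length bears on this comparison and is taken up below. With the trend on length removed, 66 of the 90 members (73.3%) were above 0, against 49.0% of protein-coding genes. Only 13.3% were then at least 1.5-fold higher, against 16.1%. Under median-of-ratios scaling, 17.8% of the members and 17.1% of protein-coding genes were at least 1.5-fold higher.

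Reads recovered from TPM and gene length gave counting intervals for each ratio. The recovered reads were within 0.01 of a whole number in both libraries for 42 of the 90 members, and for the others the intervals are approximate. The 95% interval lay above 1 for 60 members, against 41.9% of protein-coding genes, and below 1 for 6, against 29.6%. It held 1 for the other 24. The reads carry no molecular identifiers and are not independent molecules, so the intervals cover counting error only and say nothing of the spread between cultures.

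**Figure D1:**
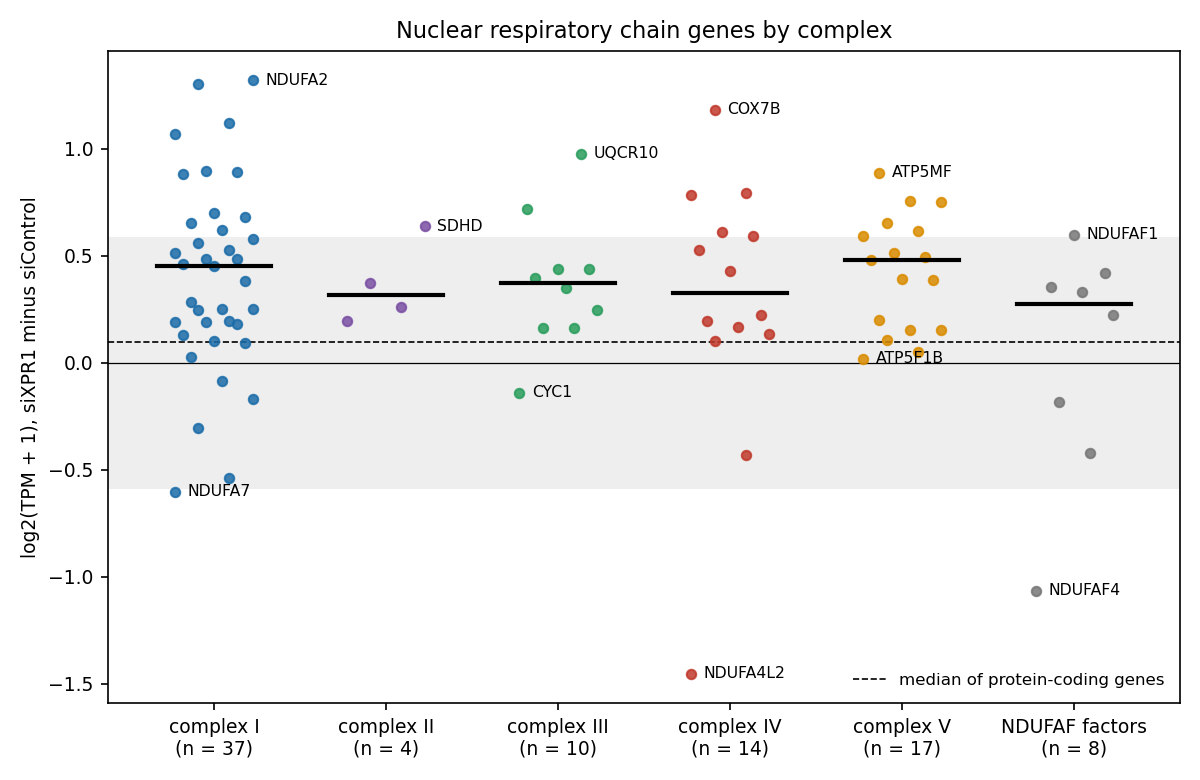
Each point is a respiratory chain gene with a mean TPM of at least 1, placed by complex (x axis) and by its difference on the log2(TPM + 1) scale, siXPR1 minus siControl (y axis). Black bars are medians, the grey band marks differences under 1.5-fold, and the dashed line is the median of protein-coding genes. The medians of complexes I to V lie between 0.32 and 0.48, and NDUFA4L2 at -1.45 and NDUFAF4 at -1.07 are the lowest points.

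The median difference was 0.45 over 37 genes of complex I, 0.32 over 4 of complex II, 0.37 over 10 of complex III, 0.33 over 14 of complex IV and 0.48 over 17 of complex V. With the trend on length removed, the medians were 0.24, 0.27, 0.19, 0.10 and 0.22 for complexes I to V, so their order was not kept. Complex I summed to 2524 TPM in siXPR1 cells and 1595 TPM in siControl cells, a ratio of 1.58. Complex II summed to 182.5 and 138.9 TPM in siXPR1 and siControl cells, a ratio of 1.31, complex III to 896 and 711 TPM, a ratio of 1.26, and complex IV to 1345 and 1050 TPM, a ratio of 1.28. Complex V had the smallest ratio of the sums, 1.20, at 1988 TPM in siXPR1 cells and 1652 TPM in siControl cells. The largest part of the complex V sum came from ATP5F1B, at 715.9 TPM in siXPR1 cells and 707.5 TPM in siControl cells. The sum of a complex follows its most abundant transcripts, and the median does not.

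**Figure D2:**
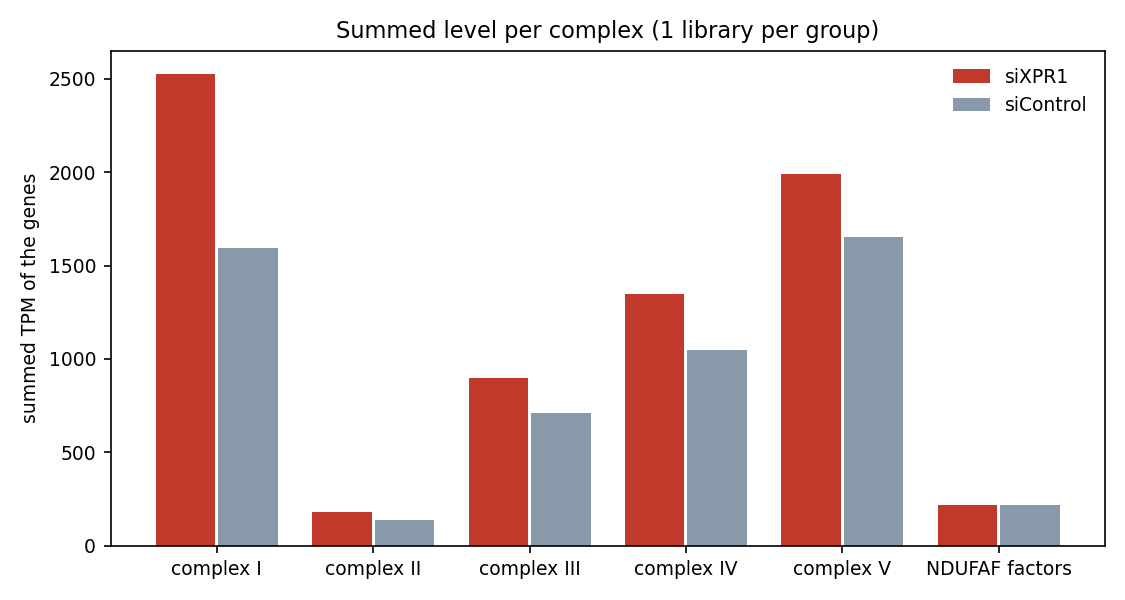
Bars give the summed TPM (y axis) of the genes of each complex (x axis), with siXPR1 left of siControl and 1 library per group, so there are no error bars. Complex I stands at 2524 and 1595 TPM, and the 8 NDUFAF factors at the same level of 217.6 TPM in both libraries.

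Promoter windows of the members at the ends of the range are shown because members that differ in the same direction can be read side by side. The windows come from RefSeq on GRCh38.p14, run from 250 bases before to 50 bases after the annotated start, and are written 5′ to 3′ on the gene's strand. The 4 highest differences and the 2 lowest were taken among members that averaged 10 TPM or more and had a window. They lie at chr5:140647581-140647880 for NDUFA2 (minus strand), chr2:201071751-201072050 for NDUFB3 (plus), chrX:77899218-77899517 for COX7B (plus) and chr12:95003648-95003947 for NDUFA12 (minus). Those of COX7A2L and NDUFAF4 lie at chr2:42361168-42361467 and chr6:96897842-96898141 (both minus). Capitals mark matches, on either strand, to GCGC, any 2 bases and GCGC for NRF1, CCGGAAG for ETS factors, AAGATGG for YY1 and CCAAT for NFY, and no match overlaps another in these windows. The first 4 windows belong to genes that were higher in siXPR1 cells and the last 2 to genes that were lower.
NDUFA2: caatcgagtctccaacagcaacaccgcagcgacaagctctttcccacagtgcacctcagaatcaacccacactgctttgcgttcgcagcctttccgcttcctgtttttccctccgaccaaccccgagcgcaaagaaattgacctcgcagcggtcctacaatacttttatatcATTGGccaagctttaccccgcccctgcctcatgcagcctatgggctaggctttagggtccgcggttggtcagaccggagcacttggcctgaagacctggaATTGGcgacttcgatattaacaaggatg
NDUFB3: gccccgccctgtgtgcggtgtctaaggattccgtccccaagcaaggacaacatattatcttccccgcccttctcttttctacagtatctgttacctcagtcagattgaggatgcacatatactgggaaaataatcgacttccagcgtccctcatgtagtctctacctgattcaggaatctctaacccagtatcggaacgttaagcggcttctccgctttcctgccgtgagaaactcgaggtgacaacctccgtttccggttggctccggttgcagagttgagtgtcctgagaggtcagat
COX7B: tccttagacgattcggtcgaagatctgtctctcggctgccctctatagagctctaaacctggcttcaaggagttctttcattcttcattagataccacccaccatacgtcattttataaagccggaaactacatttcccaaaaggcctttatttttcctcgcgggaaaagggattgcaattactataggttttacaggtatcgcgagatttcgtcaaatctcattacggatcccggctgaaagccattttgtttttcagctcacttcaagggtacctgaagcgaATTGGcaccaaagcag
NDUFA12: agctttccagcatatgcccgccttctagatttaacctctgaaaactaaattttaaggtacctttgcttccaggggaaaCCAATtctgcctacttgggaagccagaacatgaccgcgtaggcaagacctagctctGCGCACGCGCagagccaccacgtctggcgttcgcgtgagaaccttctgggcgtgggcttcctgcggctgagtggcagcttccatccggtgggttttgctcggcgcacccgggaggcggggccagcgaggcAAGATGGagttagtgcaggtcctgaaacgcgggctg
COX7A2L: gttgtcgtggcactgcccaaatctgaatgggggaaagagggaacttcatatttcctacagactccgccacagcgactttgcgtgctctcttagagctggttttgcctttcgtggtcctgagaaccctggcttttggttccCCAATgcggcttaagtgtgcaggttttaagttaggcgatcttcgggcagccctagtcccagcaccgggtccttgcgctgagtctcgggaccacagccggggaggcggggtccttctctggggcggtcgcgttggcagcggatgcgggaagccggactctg
NDUFAF4: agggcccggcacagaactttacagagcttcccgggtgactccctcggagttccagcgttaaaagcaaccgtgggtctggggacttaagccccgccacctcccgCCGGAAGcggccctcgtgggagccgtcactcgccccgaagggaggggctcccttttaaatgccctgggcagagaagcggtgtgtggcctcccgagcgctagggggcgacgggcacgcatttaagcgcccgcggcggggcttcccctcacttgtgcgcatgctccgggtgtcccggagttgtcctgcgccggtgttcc

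The windows of the higher genes did not share a motif. NDUFA2 held 2 CCAAT matches and COX7B 1, NDUFA12 held 1 each for NRF1, YY1 and NFY, and NDUFB3 held none of the motifs. COX7A2L, which was lower in siXPR1 cells, held 1 CCAAT match, and NDUFAF4 held 1 ETS match. Windows were found for 77 of the 98 members. Among the 72 of them at the floor of 1 TPM or above, the ETS motif was in 29.2%, against 19.8% of 9579 windows of protein-coding genes at the same floor and 10.7% of all 27305 windows. The YY1 motif was in 22.2% of the members' windows, against 7.72% and 6.06%, and the NRF1 motif in 25%, against 16.5% and 8.78%. CCAAT was in 33.3%, against 36.8% and 35.7%. Over these 72 members, the median difference was 0.46 for 18 genes with the NRF1 motif and 0.24 for 54 without it. It was 0.44 for 21 genes with the ETS motif and 0.39 for 51 without, and 0.34 for 16 genes with the YY1 motif and 0.41 for 56 without. For CCAAT it was 0.47 for 24 genes with it and 0.31 for 48 without. Over the 9579 protein-coding windows, the medians with and without the motif were 0.083 and 0.095 for NRF1, 0.020 and 0.11 for ETS, 0.076 and 0.094 for YY1 and 0.14 and 0.074 for CCAAT. A match is only a run of letters in the window, and whether a factor bound there was not measured.

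Complex I, the NADH dehydrogenase, has a matrix arm that takes electrons from NADH and a membrane arm that pumps protons. Its 7 nuclear core subunits, which carry the flavin and the iron-sulfur clusters or hold the quinone site, had a median difference of 0.19, and none was 1.5-fold apart on the log2(TPM + 1) scale. NDUFV1, which holds the flavin and the NADH site, was 49.0 TPM in siXPR1 cells and 41.0 TPM in siControl cells. NDUFS3 was 29.8 and 19.9 TPM in siXPR1 and siControl cells, the highest ratio of the core subunits (counting interval 1.29 to 1.73). NDUFS8, an iron-sulfur subunit, was 22.0 TPM in siXPR1 cells and 19.1 TPM in siControl cells, and its counting interval of 0.996 to 1.33 held 1. NDUFS7, which carries the cluster that passes electrons to quinone, was 3.997 and 3.66 TPM in siXPR1 and siControl cells, with an interval that also held 1, and its difference was below 0 with the trend on level removed. NDUFS1, the largest of the iron-sulfur subunits, differed in the other direction, at 37.1 TPM in siXPR1 cells and 46.0 TPM in siControl cells, a ratio of 0.805 (0.758 to 0.856). NDUFV2 was 2.45 and 4.02 TPM in siXPR1 and siControl cells, from 27 and 46 reads, and its interval reached 1. Its pseudogene had 1.09 and 0.523 TPM in siXPR1 and siControl cells, and with this added the ratio was 0.779.

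The accessory subunits of complex I, which surround the core, held 4 of the 5 members that were at least 2-fold higher. Of these 30 genes, 27 were higher by any amount (NDUFA13, NDUFAB1, NDUFC1 and NDUFS4 not so under some scaling or with a trend removed), with a median of 0.48. By at least 1.5-fold, 11 (36.7%) were higher and NDUFA7 (3.33%) was lower, against 20.7% and 11.1% of protein-coding genes. With the trend on length removed, 7 genes of complex I were higher by that much, against 11 without this step. Of protein-coding genes, 16.1% then passed. In the matrix arm, NDUFA2 (ENSG00000131495, GRCh38 chromosome 5, 140638740 to 140647785, minus strand) was 32.1 TPM in siXPR1 cells and 12.3 TPM in siControl cells, 2.62-fold higher (2.00 to 3.46). It had the highest difference of all 98 members, 1.32, and rested on 194 and 77 reads. NDUFA12 (chromosome 12, 94897055 to 95003770, minus strand) was 92.7 TPM in siXPR1 cells and 43.6 TPM in siControl cells, 2.13-fold higher (1.86 to 2.43). NDUFA6 was 79.0 TPM in siXPR1 cells and 48.9 TPM in siControl cells, and NDUFS6, just under 1.5-fold on the log2(TPM + 1) scale, 50.9 and 33.8 TPM. The matrix arm also held subunits nearer to control, with NDUFA5 at 11.1 and 7.63 TPM, NDUFS4 at 57.1 and 49.7 TPM, NDUFV3 at 19.4 and 17.6 TPM and NDUFA9 at 3.77 and 2.92 TPM in siXPR1 and siControl cells. NDUFA7 was 0.872 TPM in siXPR1 cells and 1.85 TPM in siControl cells, which are 5 and 11 reads, so its interval ran from 0.129 to 1.48.

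In the membrane arm, 18 of 20 accessory subunits were higher by any amount, with a median of 0.50 over the 20. Of the 18, NDUFA13 and NDUFC1 were below 0 under some settings. By at least 1.5-fold, 8 (40%) were higher, against 20.7% of protein-coding genes. The 20 genes had a median of 1970 exonic bases. Of protein-coding genes between 1000 and 2000 bases, 26.7% passed that fold. NDUFB3 (chromosome 2, 201071433 to 201085750, plus strand) was 87.0 TPM in siXPR1 cells and 34.7 TPM in siControl cells, 2.51-fold higher (2.09 to 3.04). NDUFS5 (chromosome 1, 39026318 to 39034636, plus strand), which faces the intermembrane space, was 416 TPM in siXPR1 cells and 191 TPM in siControl cells, 2.18-fold higher (1.94 to 2.44). It and NDUFA1, at 340.5 TPM in siXPR1 cells and 182.4 TPM in siControl cells, were the most abundant transcripts of complex I in both libraries. NDUFB4 was 155 TPM in siXPR1 cells and 83.8 TPM in siControl cells, and NDUFB8 18.2 and 9.36 TPM. Also at least 1.5-fold higher were NDUFB10, NDUFB6 and NDUFB7, with ratios of 1.63, 1.59 and 1.55. NDUFA8, NDUFB11, NDUFA3, NDUFB1 and NDUFB5 were 1.38-fold to 1.45-fold higher. With pseudogenes added, the ratios of NDUFA3 and NDUFB1 were smaller, 1.24 and 1.23, and that of NDUFB8 was larger, 2.14. NDUFC2, NDUFB9, NDUFC1 and NDUFB2 had ratios of 1.14 to 1.20, and of these only the interval of NDUFB9 lay above 1. NDUFA13, at 1.09 TPM in siXPR1 cells and 1.05 TPM in siControl cells, NDUFA10, at 28.2 and 29.98 TPM, and NDUFA11, at 3.16 and 3.67 TPM, had intervals that held 1. NDUFAB1, the mitochondrial acyl carrier protein, which sits in both arms, was 41.2 and 38.6 TPM in siXPR1 and siControl cells, and its interval held 1 too. The read-through gene NDUFC2-KCTD14 was listed at 0 in both libraries. All its exonic bases belong to other genes as well.

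**Figure D3:**
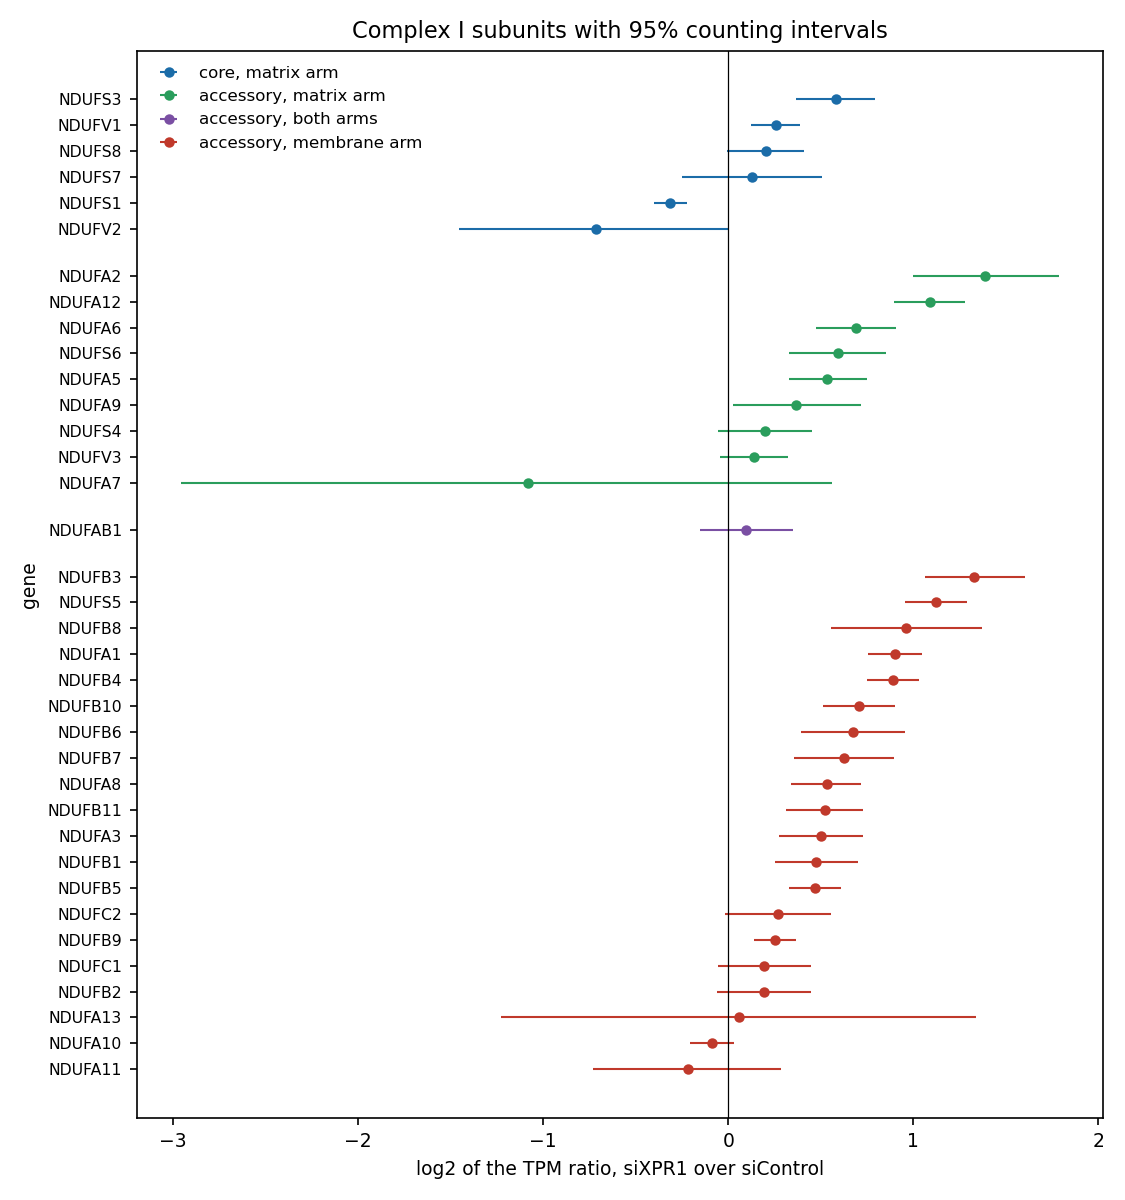
Each row is one of the complex I subunits reported here with a mean TPM of at least 1, grouped by arm and role, and the x axis is the log2 of the TPM ratio of siXPR1 over siControl. Horizontal lines are 95% Clopper-Pearson counting intervals from recovered reads and cover counting error only. Of the core subunits, NDUFS1 lies below 0 with its whole interval, and the highest accessory subunits are NDUFA2 at 2.62-fold and NDUFB3 at 2.51-fold.

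The 8 assembly factors of complex I were split in direction. They summed to 217.6 TPM in each library. By any amount, 5 (62.5%) were higher and 3 lower, against 57% and 43% of protein-coding genes. By at least 1.5-fold, 1 (12.5%) was higher and 1 (12.5%) lower, against 20.7% and 11.1%. NDUFAF4 (chromosome 6, 96889313 to 96897881, minus strand), which with NDUFAF3 builds the part of the matrix arm near the quinone site, was 7.73 TPM in siXPR1 cells and 17.3 TPM in siControl cells, 2.24-fold lower (1.70 to 2.93). Its partner NDUFAF3 was 44.7 TPM in siXPR1 cells and 38.2 TPM in siControl cells. NDUFAF2, a paralogue of NDUFA12 that takes the place of that subunit during assembly, was 66.5 TPM in siXPR1 cells and 89.4 TPM in siControl cells, 1.35-fold lower (1.15 to 1.58). The paralogues thus stood on opposite sides of the control level. NDUFAF1, which helps to build the membrane arm, was 42.9 TPM in siXPR1 cells and 28.0 TPM in siControl cells, 1.53-fold higher (1.29 to 1.84). NDUFAF5, NDUFAF6, NDUFAF7 and NDUFAF8 had ratios between 0.863 and 1.36.

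Complex II, the succinate dehydrogenase, was slightly higher in all 4 subunits. SDHD, one of its membrane anchors, was 68.1 TPM in siXPR1 cells and 43.4 TPM in siControl cells, 1.57-fold higher (1.40 to 1.76). The other anchor, SDHC, was 37.1 TPM in siXPR1 cells and 28.4 TPM in siControl cells. The iron-sulfur subunit SDHB was 72.7 TPM in siXPR1 cells and 63.4 TPM in siControl cells. The flavoprotein SDHA, which oxidises succinate, was listed far lower, at 4.58 TPM in siXPR1 cells and 3.65 TPM in siControl cells, and its interval held 1. Pseudogenes of SDHA were listed at 32.1 and 28.8 TPM in siXPR1 and siControl cells, 699.9% and 789% of the gene itself, so the level of SDHA depends on how reads of near-identical copies were assigned. With its pseudogenes added, the SDHA ratio was 1.13, and that of SDHD was 1.40.

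Complex III, the cytochrome bc1 complex, had a median difference of 0.44 in its small subunits and 0.20 in its catalytic and core ones. The groups overlapped, since the core gene UQCRC1 had a larger difference than UQCRH, UQCRB and UQCR11. CYC1, the cytochrome c1 that hands electrons to cytochrome c, was 155 TPM in siXPR1 cells and 171 TPM in siControl cells, a ratio of 0.906 (0.839 to 0.979). The Rieske iron-sulfur protein UQCRFS1 was 71.8 TPM in siXPR1 cells and 60.4 TPM in siControl cells. The core proteins UQCRC1 and UQCRC2 were 121 and 80.1 TPM in siXPR1 cells, against 89.1 and 71.4 TPM in siControl cells. These 4 genes summed to 428 TPM in siXPR1 cells and 391.7 TPM in siControl cells, a ratio of 1.09. The 5 small subunits summed to 465 TPM in siXPR1 cells and 317 TPM in siControl cells, a ratio of 1.47. The small subunits also had the lower median length, 1472 exonic bases against 3355.5 for the catalytic and core genes. UQCRB, a small subunit with 9715 bases, was nonetheless the longest gene of the complex. With the trend on length removed, the medians were 0.35 for the small subunits and 0.069 for the catalytic and core genes. Among the small subunits UQCR10 (chromosome 22, 29767369 to 29770413, plus strand) was 107 TPM in siXPR1 cells and 53.7 TPM in siControl cells, 1.98-fold higher (1.68 to 2.35). UQCRQ, which neighbours cytochrome b, was 43.5 TPM in siXPR1 cells and 26.1 TPM in siControl cells. The hinge protein UQCRH was 235 TPM in siXPR1 cells and 173 TPM in siControl cells, and UQCRB 59.8 and 45.3 TPM. UQCR11 was 20.7 TPM in siXPR1 cells and 18.4 TPM in siControl cells, with an interval that held 1, and its difference was below 0 with the trend on length removed. The retrogene UQCRHL made up 1.28% of the summed UQCRH and UQCRHL level in siXPR1 cells and 1.24% in siControl cells.

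Complex IV, cytochrome c oxidase, was expressed almost wholly from its ubiquitous isoforms. All 11 ubiquitous subunits were higher by any amount, though COX5A, COX5B, COX6A1 and COX8A were below 0 with the trend on gene length removed. Their median was 0.53, and 0.33 with that trend removed, and 5 of them (45.5%) were at least 1.5-fold higher, against 20.7% of protein-coding genes. Over complex IV as a whole the count of 5 was 3 under upper-quartile or median-of-ratios scaling or with the level trend removed. It was 2 with the length trend removed, where 16.1% of protein-coding genes passed. COX7B (chromosome X, 77899438 to 77907373, plus strand) was 53.0 TPM in siXPR1 cells and 22.8 TPM in siControl cells, 2.33-fold higher (2.02 to 2.68). Pseudogenes of COX7B were 4.14 TPM in siXPR1 cells and 7.83 TPM in siControl cells, and with these added the ratio was 1.87. NDUFA4 was 81.0 TPM in siXPR1 cells and 46.4 TPM in siControl cells, 1.75-fold higher (1.59 to 1.92). COX6B1, which faces the intermembrane space, was 132 TPM in siXPR1 cells and 76.2 TPM in siControl cells. COX7A2 was 114 TPM in siXPR1 cells and 74.5 TPM in siControl cells, and COX6C 90.6 and 59.7 TPM. COX7C lay just below 1.5-fold, at 210 and 145 TPM in siXPR1 and siControl cells. COX4I1, the largest nuclear subunit, differed less, at 147 TPM in siXPR1 cells and 131 TPM in siControl cells, as did COX5A at 127 and 111 TPM and COX5B at 65.3 and 55.7 TPM. The intervals of COX6A1, at 85.4 and 79.5 TPM in siXPR1 and siControl cells, and of COX8A, at 172 and 156 TPM, held 1.

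Against this direction, COX7A2L and NDUFA4L2 were lower in siXPR1 cells. COX7A2L (chromosome 2, 42333546 to 42425088, minus strand), which joins complexes III and IV into supercomplexes, was 63.8 TPM in siXPR1 cells and 86.4 TPM in siControl cells, 1.35-fold lower (1.26 to 1.45), from 1453 and 2044 reads. Its relative COX7A2, above, was higher. NDUFA4L2 (chromosome 12, 57234903 to 57240715, minus strand), a paralogue of NDUFA4 known as a target of hypoxia-inducible factor, was 0.878 TPM in siXPR1 cells and 4.14 TPM in siControl cells, 4.71-fold lower (2.36 to 10.4), from 10 and 49 reads. Its share of the summed NDUFA4 and NDUFA4L2 level was 1.07% in siXPR1 cells and 8.20% in siControl cells. Of the isoforms known from muscle, lung or testis, COX4I2, COX6A2, COX7B2 and COX8C were listed at 0 in both libraries. COX7A1 was 2.52 TPM in siXPR1 cells and 1.62 TPM in siControl cells, from about 10 and 7 reads. COX6B2 was 0.728 TPM in siXPR1 cells, from about 11 reads, and was listed at 0 in siControl cells. A count of 0 allows up to 3 reads, or 0.186 TPM, in that library, and the counting interval of the ratio starts at 2.61.

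In complex V, the ATP synthase, all 17 subunits with a mean of 1 TPM or more were higher by any amount, though ATP5F1B, ATP5F1D, ATP5MG and ATP5PB were below 0 under some scaling or with a trend removed. Of the 17, 6 were at least 1.5-fold higher, namely ATP5MF, ATP5MC3, ATP5MC1, ATP5PF, ATP5MJ and ATP5F1A (35.3%, against 20.7% of protein-coding genes). The count was 3 under median-of-ratios scaling and 2 with the trend on length removed, where 16.1% of protein-coding genes passed. The catalytic beta subunit ATP5F1B, the most abundant member in both libraries, was 715.9 TPM in siXPR1 cells and 707.5 TPM in siControl cells, a ratio of 1.012 (0.978 to 1.05). Its partner alpha subunit ATP5F1A was 238 TPM in siXPR1 cells and 157 TPM in siControl cells, 1.51-fold higher (1.47 to 1.56). These subunits alternate in equal number in the catalytic head. ATP5F1C, the gamma subunit of the central stalk, was 230 TPM in siXPR1 cells and 175 TPM in siControl cells. ATP5F1D and ATP5F1E, the small subunits of that stalk, had ratios of 1.12 and 1.16.

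The c ring, which turns as protons pass, is built from a single protein that ATP5MC1, ATP5MC2 and ATP5MC3 all encode. ATP5MC1 was 47.8 TPM in siXPR1 cells and 28.0 TPM in siControl cells, 1.71-fold higher (1.48 to 1.97). ATP5MC3 was 64.5 TPM in siXPR1 cells and 37.7 TPM in siControl cells, also 1.71-fold higher (1.58 to 1.84). ATP5MC2, the most abundant of them, was 108 TPM in siXPR1 cells and 96.7 TPM in siControl cells, 1.11-fold higher (1.04 to 1.19). Their sum was 220 TPM in siXPR1 cells and 162 TPM in siControl cells, and the share of ATP5MC2 in it was 49.0% and 59.5%. In the peripheral stalk, ATP5PF was 58.2 TPM in siXPR1 cells and 36.7 TPM in siControl cells, and ATP5PD, ATP5PO and ATP5PB had ratios of 1.42, 1.33 and 1.08. Among the small membrane subunits, ATP5MF (chromosome 7, 99448475 to 99466331, minus strand) was 27.6 TPM in siXPR1 cells and 14.5 TPM in siControl cells, 1.91-fold higher (1.54 to 2.36). ATP5MJ was 31.1 TPM in siXPR1 cells and 19.9 TPM in siControl cells, and ATP5MK 140 and 97.7 TPM. ATP5ME, at 16.4 and 11.4 TPM in siXPR1 and siControl cells, and ATP5MG, at 41.4 and 40.0 TPM, had intervals that held 1. The read-through gene ATP5MF-PTCD1 had 1 read in siXPR1 cells and none in siControl cells, and the retrogene ATP5MGL had 1 and 2 reads.

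Beside these nuclear members, the 13 subunit mRNAs of the mitochondrial genome had a median difference of 0.11 (-0.12 with the trend on length removed), and none was 1.5-fold apart. Within complex I, MT-ND6 was 8675 TPM in siXPR1 cells and 6775 TPM in siControl cells, and MT-ND2 9156 and 11074 TPM. MT-ND3 was 8037 TPM in siXPR1 cells and 8658 TPM in siControl cells. MT-CO2 of complex IV was 25550 TPM in siXPR1 cells and 19944 TPM in siControl cells. MT-ND6 lies on the strand opposite to its neighbours, and without strand in the library its own reads and antisense reads of the region cannot be told apart.

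Genes that build the complexes without being members were listed by complex. Of 13 other assembly factors of complex I, none was 1.5-fold apart and the median was 0.19, with FOXRED1 and COA1 the highest at ratios of 1.33 and 1.28 and LYRM2 and TMEM186 the lowest at 0.694 and 0.872. The 4 factors of complex II were within 1.5-fold too, with SDHAF2 and SDHAF3 the highest and SDHAF4 the lowest. The 10 factors of complex III had a median of 0.021. Of them, 2 were at least 1.5-fold higher (20%, against 20.7% of protein-coding genes). UQCC5 was 4.37 TPM in siXPR1 cells and 1.43 TPM in siControl cells, and UQCC3 2.47 and 1.29 TPM. TTC19, which clears fragments of the Rieske protein, was 25.5 TPM in siXPR1 cells and 38.5 TPM in siControl cells, and UQCC4 15.7 and 20.7 TPM. The sign of the complex III median depended on the scaling, as did that of complex IV.

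Of 28 factors of complex IV at a mean of 1 TPM or more, the median was 0.026. At least 1.5-fold higher were COX14, COA3, COX11, TIMM21 and CMC2, and COX19 was lower by that much. These made up 17.9% and 3.57% of the 28, against 20.7% and 11.1% of protein-coding genes. COX14 and COA3, which hold the newly made COX1 protein, were the highest. COX14 was 36.3 TPM in siXPR1 cells and 17.3 TPM in siControl cells, and COA3 40.7 and 23.3 TPM. COX19, which acts in copper delivery to the complex, was 6.09 TPM in siXPR1 cells and 14.6 TPM in siControl cells, 2.39-fold lower (1.96 to 2.94). COA7 was 28.6 TPM in siXPR1 cells and 43.0 TPM in siControl cells. For complex V, the inhibitor ATP5IF1, which blocks ATP hydrolysis, was 41.1 TPM in siXPR1 cells and 22.5 TPM in siControl cells, 1.83-fold higher (1.54 to 2.17). ATPAF1 was 26.3 TPM in siXPR1 cells and 17.0 TPM in siControl cells, while TMEM242 and ATPAF2 had ratios of 0.728 and 0.803. The median of the 5 factors of complex V was -0.25, and its sign changed with the filter on low values. FMC1 was below a mean of 1 TPM, as was the complex IV factor SCO2.

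The listed genes of the mobile carriers were mixed in direction. Of the 15, 11 (73.3%) were higher by any amount and 4 lower, against 57% and 43% of protein-coding genes. Cytochrome c, from CYCS, was 74.4 TPM in siXPR1 cells and 106 TPM in siControl cells, 1.43-fold lower (1.33 to 1.53). The 15 genes of cytochrome c and coenzyme Q had a median of 0.30. Of them, 2 were at least 1.5-fold higher (13.3%, against 20.7% of protein-coding genes). COQ2, which joins the ring of coenzyme Q to its tail, was 32.9 TPM in siXPR1 cells and 13.8 TPM in siControl cells, 2.40-fold higher (1.99 to 2.90). COQ3, a methyltransferase of the same pathway, was 15.5 TPM in siXPR1 cells and 7.53 TPM in siControl cells. DHODH, which passes electrons to coenzyme Q, was 7.08 TPM in siXPR1 cells and 7.70 TPM in siControl cells.

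Most of the listed regulators of respiratory genes or of mitochondrial gene expression were lower in siXPR1 cells. Of 14 with a mean of 1 TPM or more, 12 were lower by any amount, 5 at least 1.5-fold lower and none 1.5-fold higher, with a median of -0.44. Of protein-coding genes, 43% were lower by any amount, 11.1% at least 1.5-fold lower and 20.7% that much higher. MYC, a growth regulator that also binds many such genes, was 163 TPM in siXPR1 cells and 363 TPM in siControl cells, 2.22-fold lower (2.11 to 2.34). GABPB1, a partner of the ETS factor GABPA, was 14.5 TPM in siXPR1 cells and 24.3 TPM in siControl cells, 1.68-fold lower (1.46 to 1.92). The others at least 1.5-fold lower were ESRRA, PPRC1 and TFB1M, with ratios of 0.620, 0.644 and 0.640. GABPA itself was 27.3 TPM in siXPR1 cells and 24.4 TPM in siControl cells, and MTERF1 2.92 and 2.62 TPM. TFAM, which packages mitochondrial DNA, was 53.5 TPM in siXPR1 cells and 72.1 TPM in siControl cells, and NRF1 12.4 and 13.5 TPM. Both were picked with their values known. PPARGC1A, the best known coactivator of the pathway, was listed at 0 in both libraries. ESRRG, also below the floor, went the other way, at 0.406 TPM in siXPR1 cells and 0.0434 TPM in siControl cells. These values rested on 18 and 2 reads, and the ratio was 9.35 (2.24 to 83.1). The subunits and the regulators thus had medians of opposite sign in the same pair of libraries. Whether the one bears on the other was not tested.

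**Figure D4:**
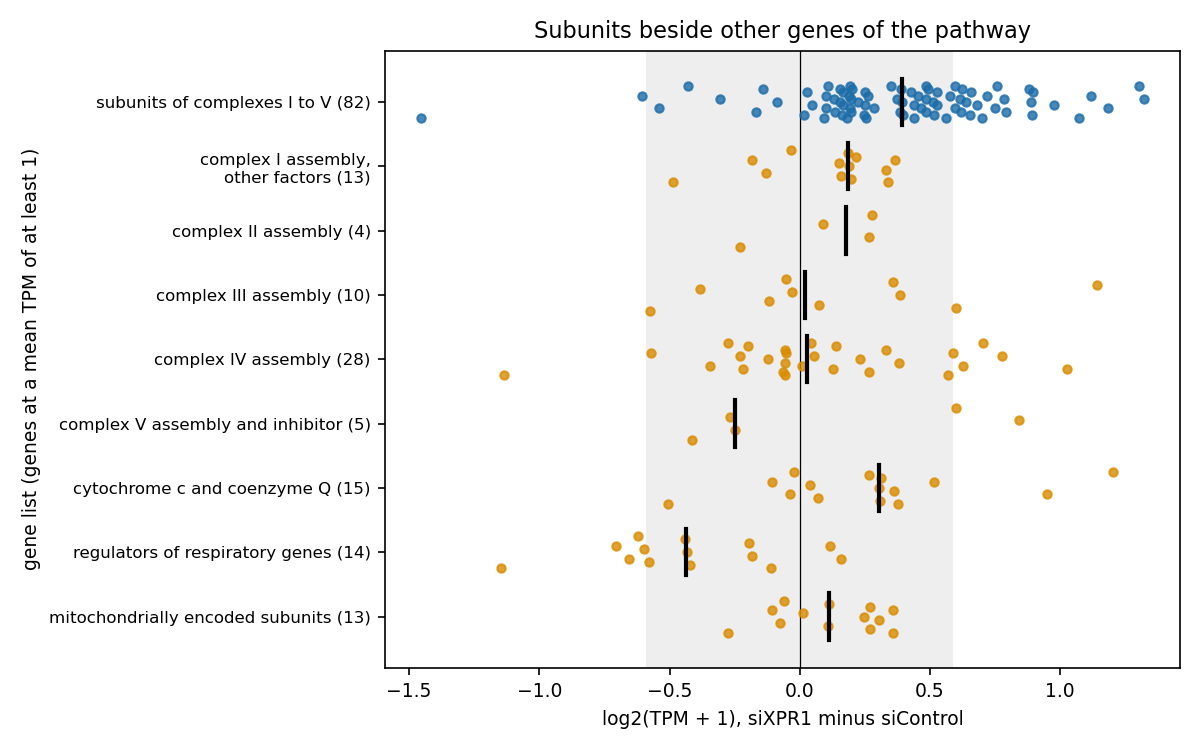
Each point is a gene with a mean TPM of at least 1, placed by gene list (rows, with the number of genes) and by its difference on the log2(TPM + 1) scale, siXPR1 minus siControl (x axis). Black bars are medians and the grey band marks differences under 1.5-fold. The subunits of complexes I to V have a median of 0.39, and the regulators one of -0.44, with MYC as the leftmost of them.

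Length moved with these differences. The members are short genes, with a median of 2468.5 exonic bases against 5158 for protein-coding genes, and a median coding length of 465 against 1422 bases. Among protein-coding genes, the median difference was 0.32 for those of up to 1000 exonic bases, 0.19 from there to 2000, 0.15 to 4000, 0.079 to 8000 and 0.032 beyond. The members had medians of 0.62, 0.52, 0.37, 0.18 and 0.33 in the same bins, with 9, 26, 32, 15 and 8 genes. In every bin the median of the members was above that of protein-coding genes. The shares at least 1.5-fold higher did not keep this order. Up to 4000 bases they were 55.6%, 42.3% and 25% of members, against 35.5%, 26.7% and 24.6% of protein-coding genes. In the longer bins they were 6.67% and 12.5% of members, against 19.1% and 16.6%. Across the 90 members, Spearman's rho between difference and exonic length was -0.33, as a description of genes that share both libraries. With the lowess trend of protein-coding genes on length removed, the median of the 90 members was 0.22. The core and accessory subunits of complex I differed in length as well, with medians of 4523 and 1852 bases, and with the trend removed their median differences were 0.077 and 0.28. The part of length in these differences was not tested further.

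**Figure D5:**
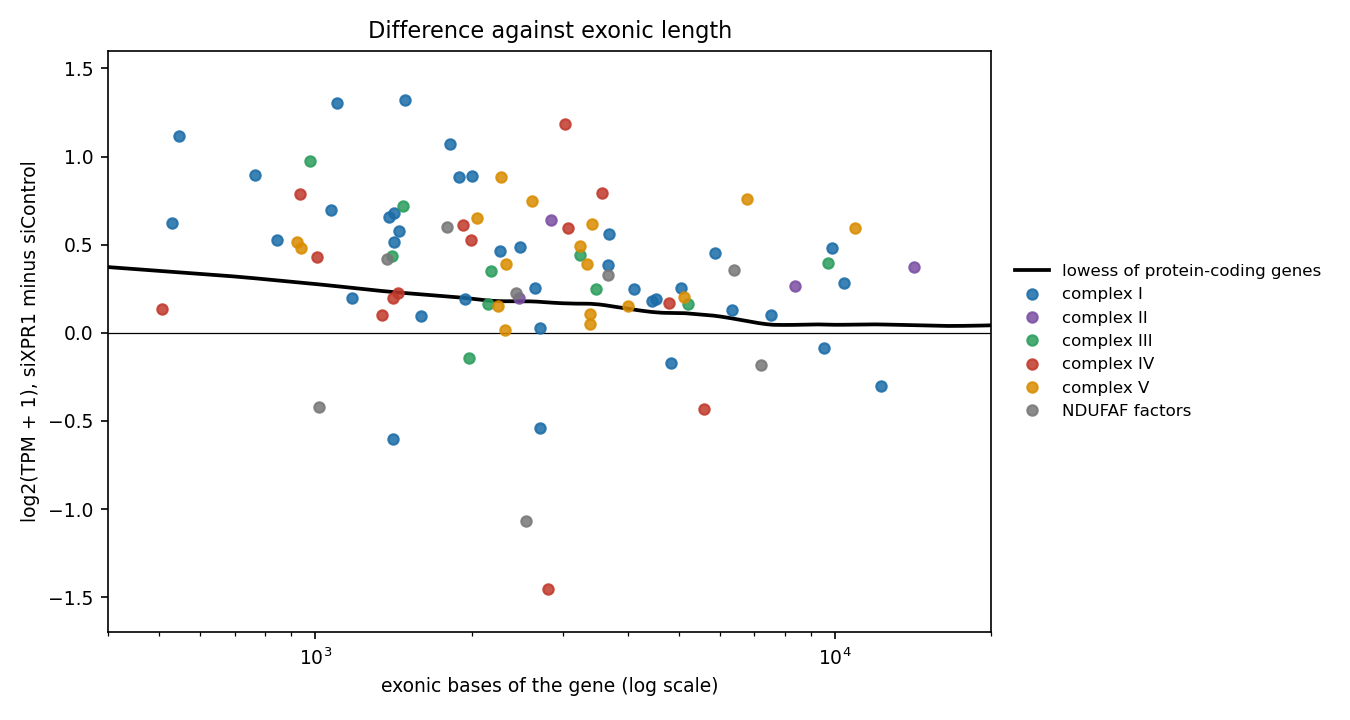
Points are the 90 respiratory chain genes that averaged 1 TPM or more, by exonic bases on a log scale (x axis) and difference on the log2(TPM + 1) scale, siXPR1 minus siControl (y axis), coloured by complex. The black line is the lowess of 11698 protein-coding genes, which runs higher for short genes. Most members lie above it, and the 4 farthest below it are NDUFA4L2, NDUFAF4, NDUFA7 and NDUFV2.

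Other features of the loci were also set beside the values. Of the 90 members, 39 shared more than 5% of their exonic bases with another gene. Their median difference was 0.25, and that of the 51 others 0.43. The median level over both libraries was 33.5 TPM for the 39 and 63.7 TPM for the 51. In the table, 195 pseudogenes named after 52 members summed to 82.1 TPM in siXPR1 cells and 96.0 TPM in siControl cells, which is 1.15% and 1.79% of the members' sum. For 19 members, another expressed protein-coding gene starts within 1000 bases and runs the other way. These neighbours had a median difference of -0.040, with HAUS1 and MRPL36 at least 1.5-fold higher and TSSK6 and OSCAR lower, while the 19 members had a median of 0.42. MRPL36, which encodes a mitochondrial ribosomal protein beside NDUFS6, was 37.6 TPM in siXPR1 cells and 13.9 TPM in siControl cells. OSCAR, beside NDUFA3, was 74.5 TPM in siXPR1 cells and 173 TPM in siControl cells. These neighbours were chosen after their values were seen.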

How the data were processed

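RNA of TPC-1 cells was sequenced after transfection with an siRNA against XPR1 or a control siRNA, with 1 library each. The authors deposited TPM values for 58884 Ensembl genes, and each column sums to 1000000. The submitters' processing notes name the GRCh38 build, featureCounts 2.0.0, Trimmomatic 0.38, FastQC and MultiQC, in no order. Which aligner and annotation release were used is not given in the sources used here. Per the labels' protocols the library kit was TruSeq RNA v2, which does not mark strand.

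Symbols came from a table that matched 58472 identifiers, and otherwise from GENCODE 29, which also gave gene types, coordinates and exon unions for 58611. The product of TPM and exonic length fell on whole multiples of 246.3 in siXPR1 cells and 237.0 in siControl cells, which gave recovered reads. Of genes with up to 10 reads, 92.5% and 92.4% gave whole reads (tolerance 0.01), but of protein-coding genes 55.5% did in either library. In 2000 exonic bases, 1 read is worth 0.123 and 0.118 TPM. The difference is log2(TPM + 1), with a pseudocount of 1 and a floor of a mean TPM of 1. Ratio intervals are Clopper-Pearson at 95%. Trends were lowess fits with a fraction of 0.3 (statsmodels 0.14.6, scipy 1.17.1, Python 3.11.15). Alternatives were other pseudocounts, floors, fold thresholds and scalings, removal of length or level trends, added pseudogenes and members with little exon overlap. The recovery of reads and the differences were also run on simulated whole reads with the same gene lengths. Such reads cannot show how recovery fares for genes whose real reads did not come out whole.

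Named genes were XPR1, the 3 highest and 3 lowest differences of complexes I, III, IV and V at a mean TPM of at least 10, complex II, core subunits, paralogues, members below the floor, and from each of 8 other lists (106 genes) the 2 farthest each way. Other members are named to account for them, and 1 core subunit is not reported here. Members and lists were chosen with earlier results of these data known. No paired analysis or test could be run.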

Additional observations from a re-analysis of the deposited data

How the results depend on the processing

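No paired analysis was possible because there is a single library on each side, which also means that none could be left out. The members' median and those of complexes I to V stayed above 0 under every alternative run, and no member at least 1.5-fold apart changed sign. Near 0 the sign was less firm, since 15 of the 99 single genes (the members and XPR1) had the other sign under at least 1 of 7 settings. Median-of-ratios scaling moved the protein-coding median to -0.00038, against 0.10 as deposited. Under it the members' median was 0.29, with 16 members at least 1.5-fold higher (17.8%, against 17.1% of protein-coding genes). The counts higher were 0 in complex II, 3 in IV, 3 in V and 0 among NDUFAF factors, and 2 of complex I were lower. The ratios of sums were 1.24 over the members, 1.47, 1.22, 1.18, 1.19 and 1.12 for complexes I to V, and 0.932 for NDUFAF factors. With the length trend removed, the medians were 0.22 over the members, 0.24 for complex I, 0.19 for III, 0.10 for IV, 0.22 for V and 0.11 for NDUFAF factors. The counts higher were then 12 over the members, 7, 0, 1, 2 and 2 for complexes I to V and 0 for NDUFAF factors. The counts lower were 5 over the members, 2 in complex I and 2 among NDUFAF factors. The 12 and 5 were 13.3% and 5.56% of the members, against 16.1% and 14.7% of protein-coding genes. Of the 26 members at least 1.5-fold higher, 12 remained so under this setting, 16 under median-of-ratios and 20 under upper-quartile scaling. Under upper-quartile scaling, 22.2% of the members passed that fold, against 19.2% of protein-coding genes. With the level trend removed, the medians of complexes I, III, IV and V were 0.33, 0.26, 0.19 and 0.36, the counts higher 0 in II, 3 in IV and 0 among NDUFAF factors, and 2 of complex I were lower. Upper-quartile scaling left 3 higher in complex IV and 0 among NDUFAF factors. At a lower threshold of 0.32 on the log2 scale, 50 members were higher (20 in complex I, 2 in II, 6 in III, 11 in V, 4 NDUFAF factors) and 6 lower (2 in I, 2 in IV, 2 NDUFAF factors). At 2-fold, 5 were higher (4 in I, 0 in II, 0 in III, 1 in IV, 0 in V, 0 NDUFAF factors) and 0 of complex I lower. Of protein-coding genes, 8.75% were 2-fold higher and 4.57% lower. From a mean of 10 TPM, 1 member was lower, 0 in complex I and 0 in IV. The share of protein-coding genes was not computed at the threshold of 0.32, from 10 TPM or for little exon overlap. The counts under these settings thus have no background beside them. With a pseudocount of 0.1, 2 of complex I were lower and XPR1 stood at -2.86. Of protein-coding genes, 12.5% were then lower. With a pseudocount of 5, 0 of complex I were lower, 0 NDUFAF factors higher, the complex IV median was 0.20 and XPR1 stood at -2.10. Of protein-coding genes, 7.57% were lower and 13.9% higher with that pseudocount. The complex IV median was also 0.20 without the floor, and the NDUFAF mean was 0.032. Members with at most 5% of their exonic bases shared, a choice made after seeing the data, gave 17 higher (7 in I, 0 in II, 1 in III, 3 in V), 0 of complex I lower, and medians of 0.48 for complex IV and 0.087 for NDUFAF factors. Among the other lists, the medians turned for complex II assembly (-0.070 from 10 TPM, -0.045 without the length trend) and complex III assembly (-0.053 from 10 TPM, -0.016 with upper-quartile and -0.074 with median-of-ratios scaling, -0.076 and -0.086 without the length and level trends). They turned likewise for complex IV assembly (-0.0095, -0.068, -0.14 and -0.080 under those scalings and trends), complex V assembly (0.18 without the floor, 0.72 from 10 TPM, a mean of 0.10) and the mitochondrial mRNAs (-0.12 without the length trend). The cause of these shifts was not tested. Depth limits genes with few reads, such as NDUFA7, NDUFA13 and NDUFA4L2. Of their exonic bases, 33.5%, 21.0% and 1.18% are shared with other genes. How shared bases bear on the listed levels was not tested.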
